A study of Homo sapiens with 24 samples.

Results

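The genes described here are those whose response to 5-FdU-ECyd after 12 h differed between A2780, an ovarian cancer cell line sensitive to platinum, and its platinum-resistant counterpart A2780cis. For each gene the log2 fold change (log2 FC) of treated against untreated A2780 was subtracted from that of treated against untreated A2780cis, and this difference of differences is called the interaction: it is above 0 where the response was more positive in A2780cis. It was tested over the 12 libraries of 12 h, out of 24 libraries in all. Of 20323 genes tested, 9051 were protein-coding and well expressed in both lines, with a mean of at least 10 CPM (counts-per-million, TMM-normalized) in each line, and 2515 of these had an interaction past the threshold, an adjusted p of at most 0.05 in edgeR's quasi-likelihood test.

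The 4 groups held 3 libraries each. Untreated A2780 and untreated A2780cis received standard growth medium, and treated A2780 and treated A2780cis received 1 μM 5-FdU-ECyd for 12 h. Both are established human lines, and A2780cis was kept resistant by 1 μM cisplatin added at intervals of a few passages, so each side of the comparison is 1 cell line. Flasks of A2780 were seeded with fewer cells than those of A2780cis. The study describes the samples of a group as biological replicates, and p-values measure the spread between them. In bulk RNA, fewer cells of a kind and less RNA per cell cannot be told apart.

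5-FdU-ECyd is a duplex drug in which a pair of nucleoside analogues is coupled. 5-FdU is converted in cells to a nucleotide that blocks thymidylate synthase, the enzyme that makes the thymine nucleotide for DNA, and ECyd is converted to a nucleotide that inhibits RNA polymerases. When RNA synthesis is slowed, transcripts that decay fast tend to fall first, the share of stable transcripts rises in turn, and elongation limits long genes more than short ones. Damaged DNA activates p53, which switches on genes of cell cycle arrest and apoptosis and represses those of mitosis. Cisplatin resistance is known to involve altered uptake, export, detoxification and survival signalling.

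Totals of the 12 libraries were between 12743219 and 21366058 counts. Treated A2780cis replicate 2 had a TMM factor of 1.09, against 0.98 and 0.96 in treated A2780cis replicates 1 and 3. The genes of cytosolic ribosomal proteins summed to 81719 CPM in it, against 105086 and 124529 CPM in replicates 1 and 3, which also differed from each other. Some of the results are given with and without treated A2780cis replicate 2. Both lines expressed the mesenchymal gene VIM at between 837 and 2723 CPM. Of the other mesenchymal markers, CDH2 was at 13.7 to 54.4 CPM in A2780 and only 1.28 to 5.27 CPM in A2780cis. ZEB1 was at 34.8 to 82.5 CPM in A2780 and 14.45 to 67.6 CPM in A2780cis. KRT7 and WT1 had no count and CDH1, PAX8 and MUC16 at most 2 counts in a library, so these defining markers of ovarian epithelium or carcinoma were absent. Of the other epithelial markers EPCAM reached 1.98 CPM in A2780 and 1.22 CPM in A2780cis, and KRT8 was at 0.864 to 1.77 CPM in A2780 and 4.12 to 7.23 CPM in A2780cis. KRT18 was at 24.03 to 30.5 CPM in A2780cis and 1.71 to 3.35 CPM in A2780, and markers of leukocytes, endothelium, blood and liver did not exceed 2 counts.

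Over all 20323 genes the interaction passed the threshold for 4327 (21.3%), above 0 for 2175 (10.7%) and below 0 for 2152 (10.6%). Among the 9051 well expressed protein-coding genes the share was 27.8%, with 1035 above 0 (11.4%) and 1480 below 0 (16.4%). The median log2 FC of these genes was -0.17 in A2780 and -0.18 in A2780cis, and the responses themselves passed the threshold for 60.7% and 67.3% of them. The split depended on the scaling. With library size alone in place of TMM factors, the median interaction of all genes tested moved from 0.02 to -0.16, and the share of calls above 0 moved from 50.3% to 27.9%, with 1318 above and 3405 below 0. In A2780 the median response of all genes was -0.04 with TMM and 0.25 with library size alone, and in A2780cis it was 0.04 and 0.16, so directions in the text are relative to the TMM scaling. Of the 78 genes named here whose A2780 response passed the threshold, 13 fell in A2780 with TMM and did not pass with library size alone: ALDOC, ME1, NFKB1, PDIA4, HSF2, COX5B, RPS15, ABCC1, GINS2, H1-2, ID3, THBS3 and HOXC9. In A2780cis the falls of PSAT1 and CANX were lost in the same way. Calls were also gained with library size alone, as rises in A2780 (RTKN2, SMG9, ADM, FOXM1 and USP18) or in A2780cis (SLC18B1, HSP90B1, NFKBIA, PDIA4, RPL3 and H2BC12), and of these RTKN2, SMG9, FOXM1, SLC18B1, HSP90B1 and RPL3 then had opposite responses. Without untreated A2780cis replicate 2, 2861 genes passed.

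The 2515 genes fell into classes by the responses of each line. In 189 genes both responses passed the threshold in opposite directions, up in A2780cis and down in A2780 for 104 and the reverse for 85. In 861 genes the response passed in A2780cis alone (425 up, 436 down), and in 509 in A2780 alone (220 up, 289 down). In 936 genes both responses had the same direction and differed in size, most often genes that fell in both lines and fell further in A2780cis (604). The remaining 20 passed for the interaction and for neither response. Opposite responses were mostly small: both exceeded 0.5 on the log2 scale in 20 of the 189 genes and both exceeded 1 in EGFR, the 1 gene to do so. With library size alone 271 genes were opposite, 33 up in A2780cis and 238 up in A2780, and these shared 8 genes with the 104 and 55 with the 85. All 85 and 88 of the 104 kept the signs of both responses. Membership of both sets thus depended on the scaling, and most for the set that rose in A2780cis. With DESeq2's size factors 74 of the 104 and 80 of the 85 remained. The number of opposite genes was 291 without treated A2780cis replicate 2. It was 109 without treated A2780 replicate 2, 114 without untreated A2780 replicate 2, 117 without untreated A2780cis replicate 2 and 120 without untreated A2780 replicate 1.

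**Figure D1:**
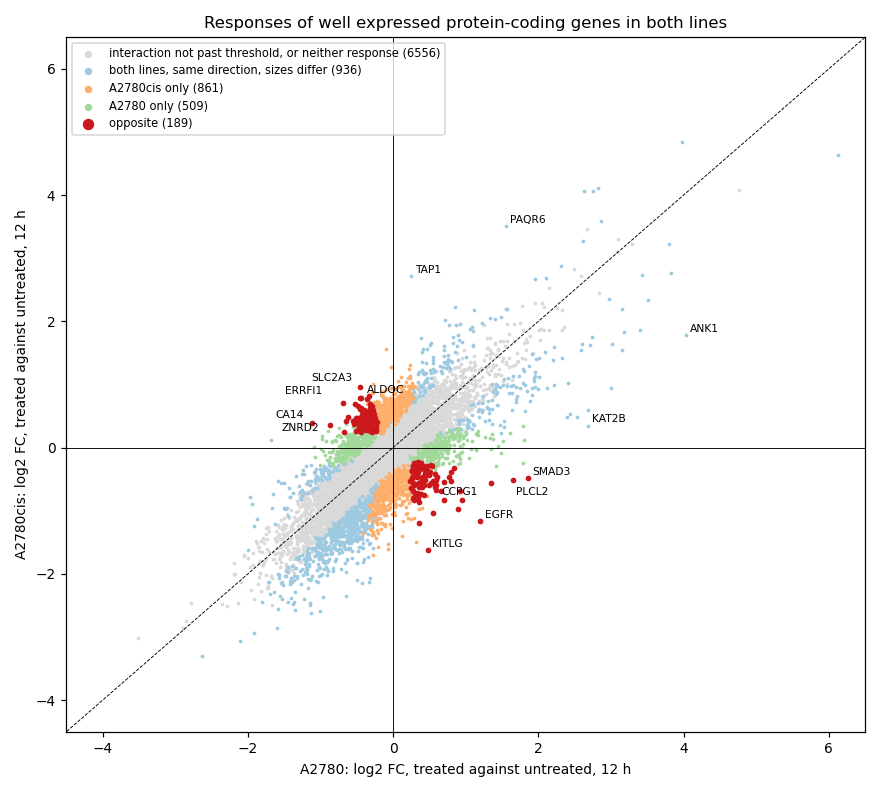
Log2 FC of treated against untreated cells at 12 h in A2780 (horizontal) and A2780cis (vertical) for the 9051 well expressed protein-coding genes, each point 1 gene and the dashed line equal responses. The 189 opposite genes (red) lie close to the origin, with EGFR, SMAD3 and KITLG farthest out at the lower right and CA14, ERRFI1 and SLC2A3 at the upper left.

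Among genes that rose in A2780 and fell in A2780cis, EGFR had the most negative interaction. EGFR (ENSG00000146648.16, chromosome 7 from 55019017 to 55211628, as all gene coordinates here in GRCh38 from GENCODE 44) encodes the receptor of epidermal growth factor. It was at 6.84, 7.22 and 8.81 CPM in the 3 untreated and 17.1, 18.2 and 17.5 CPM in the 3 treated A2780 libraries, and at 15.8, 19.99 and 18.6 CPM in untreated and 8.16, 9.39 and 6.78 CPM in treated A2780cis. The groups of each line did not overlap, and the treated libraries of each line overlapped with the untreated libraries of the other. The log2 FC was 1.201 in A2780 and -1.16 in A2780cis (interaction -2.36, standard error 0.1999, adjusted p = 1.20e-06). In the independent 6 h libraries, where 2.87% of the 9051 genes passed, the interaction was -1.42 (adjusted p = 0.00173).

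SMAD3 (ENSG00000166949.15, chromosome 15 from 67063763 to 67195173), which carries TGF-beta signals to the nucleus, differed little between untreated cells, at 17.4, 17.6 and 20.2 CPM in A2780 and 16.5, 20.3 and 20.3 CPM in A2780cis. After treatment it was at 67.05, 68.6 and 64.2 CPM in A2780 and at 12.3, 15 and 13.7 CPM in A2780cis. It thus rose in A2780 to well above every other library and fell by less in A2780cis (interaction -2.33, standard error 0.17, adjusted p = 2.88e-07). PLCL2, a catalytically inactive relative of phospholipase C, rose from 6.49, 7.28 and 6.89 to 21.7, 21.9 and 21.4 CPM in A2780. In A2780cis it went from 13.3, 15.7 and 12.4 to 10.3, 10.7 and 8.003 CPM, without overlap (interaction -2.16, adjusted p = 1.47e-06).

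KITLG and CCPG1 had far higher untreated levels in A2780cis. KITLG (ENSG00000049130.13, chromosome 12 from 88492793 to 88580851) encodes the ligand of the receptor KIT. It was at 261, 227 and 199 CPM in untreated and 91.7, 76.3 and 54.9 CPM in treated A2780cis, against 19.2, 19.2 and 13.3 CPM untreated and 25.9, 21.5 and 24.5 CPM treated in A2780. Its fall in A2780cis (log2 FC -1.62) was the main part of the interaction of -2.102 (standard error 0.24, adjusted p = 2.71e-05), and even after it the level stayed above that of A2780. CCPG1, a receptor for the degradation of endoplasmic reticulum by autophagy, was at 308, 274 and 244 CPM untreated and 207, 182 and 171 CPM treated in A2780cis and at 16.4, 18.6 and 13.2 CPM untreated and 44.2, 39.4 and 38.6 CPM treated in A2780 (interaction -1.91, adjusted p = 3.29e-06). Of its exon bases, 38.9% also lie in exons of a readthrough and of other genes on the same strand, so its counts are shared in part.

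In the other direction, SLC2A3, ERRFI1, CA14, ALDOC and ZNRD2 rose in A2780cis and fell in A2780. With library size alone the 5 genes kept both signs, and both calls apart from the fall of ALDOC in A2780. SLC2A3 (ENSG00000059804.15, chromosome 12 from 7919230 to 8019007), the glucose transporter GLUT3, was at 195, 199 and 209 CPM in untreated and 148, 142 and 149 CPM in treated A2780. In A2780cis it was at 98.9, 88.9 and 87.4 CPM untreated and 187, 167 and 182 CPM treated. Untreated A2780 lay far above untreated A2780cis. After treatment the order of the lines was reversed, by a smaller gap and without overlap (interaction 1.42, standard error 0.12, adjusted p = 1.32e-06). ERRFI1 (ENSG00000116285.12, chromosome 1 from 8004404 to 8026309), which encodes a feedback inhibitor of EGFR, fell from 56.4, 53.5 and 60.7 to 37.6, 34.4 and 34.03 CPM in A2780 and rose from 7.98, 7.69 and 7.28 to 13.7, 11.1 and 12.6 CPM in A2780cis (interaction 1.39, standard error 0.16, adjusted p = 2.80e-05). All A2780 libraries stayed above all A2780cis libraries. The receptor EGFR and its inhibitor thus moved in opposite directions in each line.

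CA14 encodes a carbonic anhydrase of the cell membrane. It fell from 63.3, 72.97 and 71.3 to 35.5, 31.4 and 29.02 CPM in A2780 and was at 10.5, 9.03 and 9.52 CPM in untreated and 13.1, 11.2 and 13.8 CPM in treated A2780cis, where the response was smaller (log2 FC 0.39, adjusted p = 0.0141). ALDOC, an aldolase of glycolysis, was at 12.6, 12.6 and 12.9 CPM untreated and 10.1, 9.85 and 8.02 CPM treated in A2780 and at 29.2, 23.4 and 26.8 CPM untreated and 42.6, 42.7 and 51.7 CPM treated in A2780cis. Here the untreated level was already higher in A2780cis and the treatment widened the gap. ZNRD2 was at 29.6, 30.6 and 30.1 CPM untreated and 12.2, 16.2 and 20.9 CPM treated in A2780 and at 42.2, 44.6 and 58.7 CPM untreated and 58.1, 63.7 and 65.4 CPM treated in A2780cis, where 1 untreated library lay within the treated range. ZNRD2 shares 52.1% of its exon bases with the neighbouring gene FAM89B on the same strand.

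**Figure D2:**
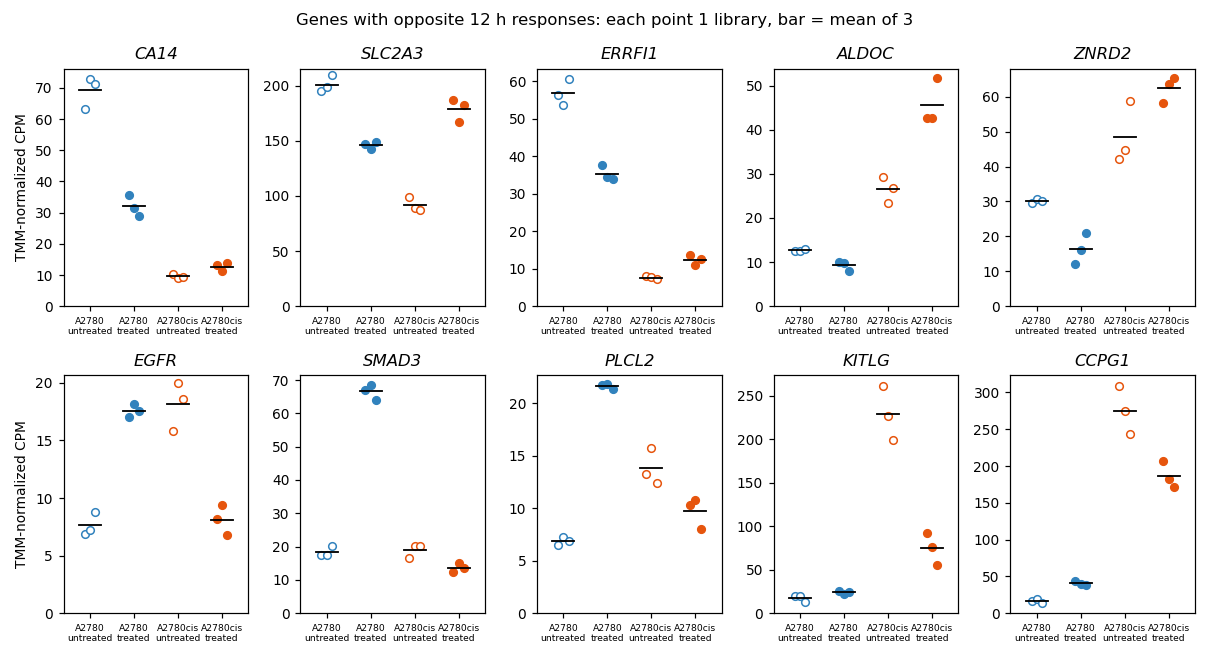
TMM-normalized CPM (vertical, from 0) of the 10 named genes with opposite responses in each 12 h library, open points untreated and filled points treated, with the mean of 3 libraries as a bar. The upper row fell in A2780 (blue) and rose in A2780cis (orange), and the lower row did the reverse.

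The opposite genes were compared with libraries that had no part in their choice, those of 6 h. The 6 h interaction was above 0 in 97 of the 104 genes that rose in A2780cis and in 7 of the 85 that rose in A2780, against 48.6% of all 9051 genes. It passed the threshold above 0 in 8 of the 104, where 0.784% of the 9051 did so, and below 0 in 22 of the 85, where 2.09% did so. Untreated levels of 6 h were also unequal. Of the 85 genes that rose in A2780, 52 were higher and 11 lower in untreated A2780cis (median log2 difference 0.46), and of the 104 that rose in A2780cis, 10 were higher and 47 lower (median -0.21). Over the 9051 genes 50.3% passed, 2378 of them higher and 2174 lower, with a median of 0.01. The minimum of 10 CPM was set on untreated and treated libraries together, so that 5 genes of each set were in it with an untreated mean under 10 CPM in 1 line. Among them were EGFR and PLCL2, low in untreated A2780, and ERRFI1 and CA14, low in untreated A2780cis. They met the minimum through the treated libraries of that line. Without the 5 genes of each set, 47 of 80 genes that rose in A2780 were higher and 11 lower in untreated A2780cis at 6 h. Of 99 that rose in A2780cis, 10 were higher and 42 lower.

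Among genes that rose in A2780cis alone, OXLD1 was at 10.6, 10.7 and 12.4 CPM in untreated and 8.72, 9.85 and 12.8 CPM in treated A2780, which overlapped, and rose from 7.41, 9.996 and 11.2 to 22.5, 29.4 and 32.5 CPM in A2780cis (interaction 1.66, adjusted p = 3.01e-04). Of the 425 genes of this class, 12 had an untreated mean under 10 CPM in at least 1 line. OXLD1 and IFI35 were among them and met the minimum through the treated A2780cis libraries. RNF5, a ubiquitin ligase of the endoplasmic reticulum, rose from 31.4, 30.4 and 25.8 to 60.2, 47.9 and 68.8 CPM in A2780cis and was at 34.3, 38.7 and 41.3 CPM untreated and 32.8, 29.01 and 32.3 CPM treated in A2780, and its counts are uncertain because it has a processed pseudogene of similar sequence. ENSG00000167774 rose in A2780cis as well (log2 FC 0.88), but 91.0% of its exon bases lie in exons of NDUFA7, RPS28 and CD320, and its value cannot be told apart from theirs.

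Of genes that fell in A2780cis alone, SIRT1, a deacetylase that acts on p53 and histones, was at 69.5, 65.6 and 68.04 CPM in untreated and 71.9, 61.6 and 60.2 CPM in treated A2780. It fell from 285, 287 and 249 to 98.8, 89.9 and 80.8 CPM in A2780cis (log2 FC -1.61, interaction -1.54, adjusted p = 3.59e-06). Untreated A2780cis was the group that stood out, and after treatment the lines differed by 0.48 on the log2 scale. SMG9, a subunit of the complex that starts nonsense-mediated decay, fell from 26.3, 30.6 and 32.3 to 10.1, 12.6 and 11.1 CPM in A2780cis and was at 33.8, 28 and 37.1 CPM untreated and 31.8, 38.01 and 37.6 CPM treated in A2780. RTKN2 had an interaction of -1.81 and GRAMD4 of -1.46. SMG9 and RTKN2 also rose in A2780 with library size alone and no longer belonged to this class. At 6 h the interaction was above 0 in 56 of the 436 genes of this class and passed the threshold below 0 in 29, and it was above 0 in 382 of the 425 that rose, with 6 past the threshold.

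Among genes that rose in A2780 alone, AHNAK, a very large scaffold protein, rose from 23, 23.8 and 21.6 to 74.8, 79.8 and 82.04 CPM in A2780 and was at 203, 229 and 222 CPM untreated and 176, 233 and 141 CPM treated in A2780cis, where the groups overlapped (interaction -2.04, adjusted p = 4.38e-06). SLC4A11, a membrane transporter, rose from 8.25, 9.07 and 8.81 to 17.1, 24.96 and 27.6 CPM in A2780 and was at 52.1, 65.9 and 75.4 CPM untreated and 42.8, 62.7 and 52.4 CPM treated in A2780cis. PTPRU, a receptor tyrosine phosphatase, had an interaction of -1.68 and ASTN2 of -1.57. In the 6 h controls 116 of the 220 genes of this class were higher in A2780cis and 27 lower, and 98 and 27 of the 202 with at least 10 CPM in the untreated 12 h libraries of each line. SLC4A11 was not among the 202 and met the minimum through the treated A2780 libraries.

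Of the 289 genes that fell in A2780 alone, HSP90B1, the HSP90 chaperone of the endoplasmic reticulum, was at 1400, 1383 and 1084 CPM in untreated and 721, 629 and 614 CPM in treated A2780. It was at 2142, 1943 and 1854 CPM untreated and 2248, 1843 and 2407 CPM treated in A2780cis, with overlap (interaction 1.11, standard error 0.18, adjusted p = 5.66e-04). SLC18B1, a vesicular polyamine transporter, fell from 32.1, 32.3 and 30.2 to 18.9, 16.2 and 15.9 CPM in A2780, and OAF from 15.2, 16.5 and 19.6 to 6.59, 9.003 and 10.2 CPM, with interactions of 1.16 and 1.16. HSP90B1 and SLC18B1 also rose in A2780cis with library size alone. DIPK1B had an interaction of 1.79, and 43.7% of its exon bases are opposite exons of SNHG7. The study names a stranded library kit, but the counting settings it lists include none for the strand. Reads of such a pair cannot be told apart without the strand.

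The most positive interaction of a well expressed gene was that of TAP1 (ENSG00000168394.10, chromosome 6 from 32845209 to 32853816), a subunit of the transporter that loads peptides for MHC class I. TAP1 was at 8.45, 9.45 and 8.72 CPM in untreated and 53.3, 56.3 and 65.2 CPM in treated A2780cis. In A2780 it was at 223, 219.6 and 253 CPM untreated and 269, 279.6 and 276 CPM treated. It rose in both lines, by 2.72 on the log2 scale in A2780cis and 0.24 in A2780 (interaction 2.47, standard error 0.14, adjusted p = 1.43e-08), and every A2780cis library stayed below every A2780 library. PAQR6 rose from 2.64, 2.73 and 3.15 to 23.6, 34.9 and 38.8 CPM in A2780cis and from 5.78, 6.6 and 6.501 to 17.9, 21.2 and 16.4 CPM in A2780. Larger rises in A2780 were those of KAT2B, a histone acetyltransferase, from 3.88, 3.58 and 3.03 to 24.3, 21.3 and 21.4 CPM (in A2780cis from 16.4, 15.8 and 13.5 to 21.6, 18.7 and 18.2), and of the membrane anchor gene ANK1, from 2.89, 3.21 and 4.02 to 42.2, 59.2 and 65.2 CPM (in A2780cis from 6.27, 6.18 and 9.12 to 21.3, 31.8 and 20.96). The minimum for well expressed genes was set on untreated and treated libraries together. Of the 119 genes that rose in both lines and further in A2780cis, 42 had an untreated mean under 10 CPM in at least 1 line. Of the 124 that rose further in A2780, 30 did so. TAP1, PAQR6, KAT2B and ANK1 were among these.

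Some protein-coding genes were expressed in 1 line and nearly absent from the other, with a mean under 1 CPM there. Of 176 such genes of A2780 18 passed the interaction test (10.2%), and of 58 of A2780cis 9 did so (15.5%), both below the 21.3% of all genes tested. CAMK4, a calcium-dependent kinase, fell from 26.9, 24.1 and 21.8 to 12.3, 11.04 and 9.43 CPM in A2780cis, and had no count in untreated and 0.567, 0.5502 and 1.203 CPM in treated A2780. PDLIM1, a LIM domain protein of the cytoskeleton, was at 27.9, 31.7 and 31.03 CPM untreated and 29.1, 24.7 and 28.8 CPM treated in A2780cis, and at 0 CPM in all untreated and 0.0709, 0.2501 and 0.301 CPM in treated A2780. MAML3, a coactivator of Notch, fell from 19.4, 22.2 and 25.6 to 4.75, 5.25 and 5.21 CPM in A2780 and was at most 0.244 CPM in any A2780cis library. ME1, the cytosolic malic enzyme, was at 17.4, 21.2 and 22.8 CPM untreated and 16.6, 13.6 and 13.8 CPM treated in A2780 and at most 0.201 CPM in A2780cis. The interaction of ME1 did not pass the test. No fold is given for the line near 0, where the tests of these genes rest on few counts.

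The classes differed in the genomic length of their genes, which the choice of genes did not use. The median span from the first to the last annotated base was 34.03 kb over the 9051 genes. It was 12.6 kb for genes that rose in A2780cis and fell in A2780 and 68.5 kb for the reverse, 10.8 kb for those up in A2780cis alone and 66.3 kb for those down in A2780cis alone, and 104 kb for genes that fell in both lines and further in A2780cis. In 5 bins of equal size the median log2 FC of A2780cis went from 0.17 in the shortest genes to -0.73 in the longest, and that of A2780 from -0.08 to -0.44. Interactions above 0 passed the threshold in 25.2% of the shortest genes and 4.81% of the longest, and those below 0 in 6.13% and 32.5%. With library size alone these shares were 15.5% and 2.65% above 0, and 11.9% and 45.4% below 0, with the median interaction still falling from 0.04 to -0.46. The share above 0 in the shortest genes was between 13.9% and 16.4% without untreated A2780 replicate 1, 2 or 3, treated A2780 replicate 2 or 3 or untreated A2780cis replicate 2. In the longest it was between 1.88% and 2.87% without untreated A2780 replicate 1 or 2, treated A2780 replicate 2 or 3, untreated A2780cis replicate 2 or 3 or treated A2780cis replicate 1. Without treated A2780cis replicate 2 the median interaction went from 0.18 to -0.37. The medians of the same bins at 6 h went from 0.02 to -0.07.

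**Figure D3:**
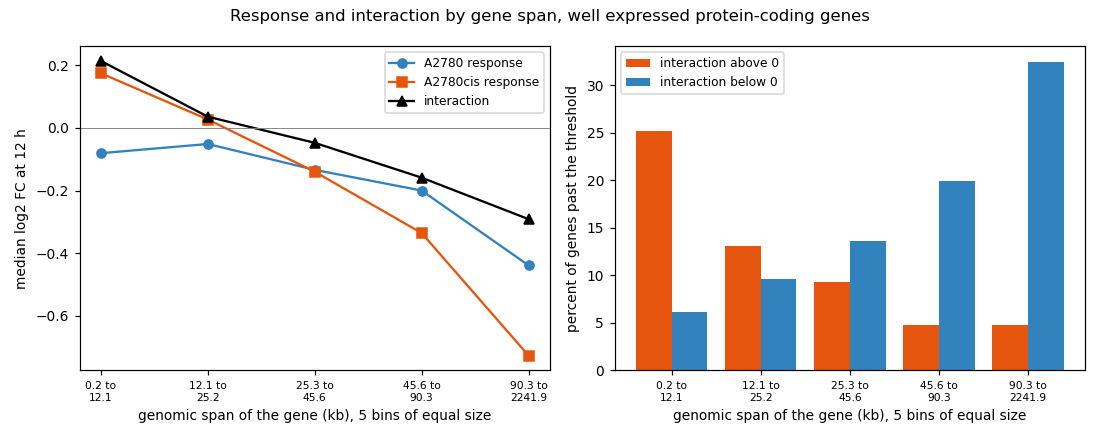
Left, median log2 FC of each line and median interaction at 12 h in 5 bins of the 9051 genes by genomic span in kb. Right, percent of genes in each bin with an interaction past the threshold above 0 (orange) or below 0 (blue): the share above 0 fell from 25.2% to 4.81% and the share below 0 rose from 6.13% to 32.5% with length.

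Gene lists of pathways were then counted, each against the 10.7% and 10.6% of all genes tested with interactions above and below 0. The same shares were 25.8% risen and 28.7% fallen in A2780, 30.6% and 28.6% in A2780cis, and, for the interaction of 6 h, 0.790% above and 1.57% below 0. The shares for the interaction of 12 h were 6.49% above and 16.8% below 0 with library size alone. Of 37 p53 target genes, all 37 rose in A2780 and 34 in A2780cis, and the size differed in 14 (4 above 0, 10 below, median -0.14). The 4 became 2 with library size alone and without untreated A2780 replicate 2 or 3, treated A2780 replicate 2 or untreated A2780cis replicate 1. CDKN1A, the inhibitor that arrests the cell cycle, was at 46.1, 47.9 and 49.1 CPM in untreated and 326, 339.5 and 348 CPM in treated A2780, and at 13.9, 12.96 and 14.5 CPM untreated and 247, 224 and 249 CPM treated in A2780cis, with the larger rise in A2780cis (interaction 1.295, adjusted p = 4.85e-06). TP53INP1, a pro-apoptotic p53 cofactor, rose from 12.3, 13.1 and 12.2 to 147, 138 and 135 CPM in A2780. It was at 0.985, 0.363 and 0.459 CPM untreated and 0.602, 0.671 and 0.339 CPM treated in A2780cis, where it was almost absent and its response did not pass the threshold. The interaction of TP53INP1 did pass, with values between -3.91 and -3.14 over 20 alternatives, and rests on few counts in A2780cis. FAS, a death receptor, rose from 12.8, 11.7 and 8.15 to 76.05, 67.2 and 66.3 CPM in A2780 and from 40.99, 36.3 and 32.4 to 61.6, 53.8 and 50.9 CPM in A2780cis (interaction -2.09, adjusted p = 4.76e-06). Of 26 genes of the BCL2 family and death receptors, 2 were above and 4 below 0 (median -0.08), and the 4 became 7 without treated A2780cis replicate 2. TNFRSF1A, the main receptor of tumour necrosis factor, had an interaction of -0.67, and BCL2L1, an inhibitor of apoptosis with 41.3% of its exon bases opposite exons of an antisense RNA, of -0.47 (adjusted p = 0.0432). The call of BCL2L1 was lost in 8 of 20 alternatives, with adjusted p up to 0.109.

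NF-kappa-B factors are held in the cytoplasm by inhibitors such as the product of NFKBIA until a signal frees them, and they then raise survival and inflammatory genes together with their own inhibitor. Of 23 genes of this list, 13 had an interaction below 0 and 1 above 0 (median -0.83). In A2780 16 rose and 2 fell, and in A2780cis 8 rose and 6 fell. BIRC3, an inhibitor of apoptosis, rose from 2.89, 3.15 and 2.15 to 22.96, 19.1 and 23.3 CPM in A2780 and from 9.22, 7.88 and 6.65 to 17, 15.6 and 13.4 CPM in A2780cis (interaction -2.05, standard error 0.23, adjusted p = 2.46e-05). NFKBIA rose from 25.04, 25.3 and 28.8 to 55.8, 50.5 and 48.2 CPM in A2780 and was at 33.2, 33.1 and 32.1 CPM untreated and 37.5, 34.9 and 36.7 CPM treated in A2780cis (interaction -0.81, adjusted p = 9.55e-04). NFKB1, a subunit of the factor, fell from 62.03, 69.6 and 65.04 to 31.2, 27.6 and 29.03 CPM in A2780cis and from 59.5, 59.5 and 61.7 to 51.5, 51.02 and 48.9 CPM in A2780, where its sign turned with library size alone. At 6 h, 1 gene of the list was above 0 and 3 were below (median -0.26).

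The kappa-B motif (GGG and TTTCC with 2 bases of any kind between them, on either strand) was found in 6 of the 20 promoters of this list with a RefSeq window of 250 bases before to 50 after the start (30.0%), against 1.92% of all 27305 windows. The list was chosen for known links to NF-kappa-B, so this share describes the list and not the interaction. Stretches before the RefSeq start are shown for NFKBIA, BIRC3 and NFKB1, and for TAP1, whose interaction had the opposite sign, with the motif in capitals. They lie in GRCh38.p14 at chr14:35404781-35404870 (minus strand), chr11:102317245-102317334 (plus), chr4:102501270-102501358 (plus) and chr6:32853727-32853816 (minus). GENCODE genes can begin farther out than the RefSeq start: of all stretches shown here, those of TAP1, IFI27, IFITM1 and PLK1 lie within the GENCODE gene and that of NFKB1 in part.
NFKBIA: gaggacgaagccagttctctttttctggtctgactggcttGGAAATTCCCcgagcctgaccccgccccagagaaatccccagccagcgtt
BIRC3: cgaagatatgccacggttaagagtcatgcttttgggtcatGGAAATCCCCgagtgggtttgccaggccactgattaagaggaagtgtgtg
NFKB1: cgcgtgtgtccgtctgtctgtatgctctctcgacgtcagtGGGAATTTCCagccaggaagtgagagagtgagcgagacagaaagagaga
TAP1: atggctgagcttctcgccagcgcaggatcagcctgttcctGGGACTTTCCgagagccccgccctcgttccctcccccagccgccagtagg
Genes with a match to the motif thus differed in the sign of the interaction. Over the opposite genes the motif was in 2 of 80 windows of those up in A2780cis and in 0 of 75 of those up in A2780.

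Immediate early genes, which follow growth factor and stress signals within minutes, and the MAPK phosphatases that curb them moved both ways: 13 of 38 were above 0 and 10 below (median 0.20). The 13 became 8 without untreated A2780 replicate 3 or with library size alone, and the 10 became 5 without untreated A2780cis replicate 2. EGR1, a zinc finger factor, rose from 10.02, 11.97 and 12.7 to 62.1, 63.1 and 59.7 CPM in A2780 and from 32.2, 36.6 and 37.5 to 74.3, 78.2 and 63.5 CPM in A2780cis (interaction -1.38). FOS, a subunit of AP-1, rose from 3.17, 3.58 and 2.75 to 17.7, 20.5 and 20.6 CPM in A2780 and from 1.81, 1.696 and 2.01 to 31.7, 31.9 and 29.2 CPM in A2780cis (interaction 1.43, adjusted p = 1.74e-04). MYC, a factor of growth and proliferation, fell from 93.4, 97.8 and 111 to 36.5, 36.1 and 34.2 CPM in A2780 and from 95.97, 108 and 114 to 70.3, 73.3 and 72.03 CPM in A2780cis, with the smaller fall in A2780cis (interaction 0.94). Both lines had much the same untreated MYC level.

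ATF4 is the factor of the integrated stress response, which raises amino acid synthesis and transport when translation is curbed. Of 24 ATF4 genes 11 were above 0 and 1 below (median 0.41), and 7 and 2 with library size alone. DDIT4, an inhibitor of mTOR signalling, rose from 108, 114 and 119.5 to 214, 211 and 212 CPM in A2780 and from 27.6, 25.2 and 32.9 to 92.4, 103 and 99.9 CPM in A2780cis (interaction 0.89). PSAT1, an enzyme of serine synthesis, fell by less in A2780cis (interaction 0.91), and CEBPB rose by more (1.04). Of 24 genes of endoplasmic reticulum chaperones and the unfolded protein response 7 were above 0 and 2 below, with a median of 0.15. Library size alone gave 4 above and 4 below and a median below 0. The 7 also became 4 when any 1 library was left out other than treated A2780 replicate 1 and treated A2780cis replicates 2 and 3, and the 2 became 4 without treated A2780cis replicate 1. PDIA4, a disulfide isomerase, was at 380.4, 394 and 408 CPM in untreated and 267, 286 and 291 CPM in treated A2780 and at 521, 575 and 574 CPM untreated and 612, 604 and 643 CPM treated in A2780cis (interaction 0.64). CANX, the lectin chaperone calnexin, fell in both lines and by less in A2780cis (interaction 0.73), where the fall was not past the threshold with library size alone.

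Cytosolic heat shock genes fell in most cases, 16 of 20 in A2780 and 14 in A2780cis, and the interaction was above 0 in 5 and below 0 in 4, with a median of 0.13. Library size alone gave 3 above 0 and a median below 0. The 5 became 2 without untreated A2780 replicate 1 or 2, treated A2780 replicate 2 or 3 or untreated A2780cis replicate 3, and 3 without untreated A2780 replicate 3, untreated A2780cis replicate 2 or treated A2780cis replicate 1 or 3. HSPA4L, an HSP110 chaperone, rose from 63.9, 58.97 and 52.8 to 95.8, 80.9 and 79.7 CPM in A2780 and fell from 217, 189 and 171 to 108, 94.5 and 80.4 CPM in A2780cis (interaction -1.57, adjusted p = 1.86e-05). HSF2, a heat shock factor, fell further in A2780cis (log2 FC -1.57) than in A2780 (-0.44). AHSA1, an activator of HSP90, fell by less in A2780cis (interaction 0.78).

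The ribosomal protein and respiratory chain lists held the largest shares above 0. Of 85 cytosolic ribosomal protein genes 67 were above 0 and 0 below (median 0.69), and 13 of them belonged to the opposite class. In A2780 26 fell and 1 rose, but 7 fell and 17 rose with library size alone. In A2780cis 69 rose and 2 fell, and 77 and 2 with library size alone. Their summed level was 62320, 59596 and 61293 CPM in untreated and 55142, 50713 and 52665 CPM in treated A2780, against 81808, 70427 and 71011 CPM in untreated and 105086, 81719 and 124529 CPM in treated A2780cis. In A2780cis treated replicate 2 was just below untreated replicate 1, and treated replicates 1 and 3 were above every untreated library. As shares of all counts of a library, with no TMM factor, the values were 5.79%, 5.55% and 5.77% in untreated and 6.11%, 5.84% and 6.08% in treated A2780, and 7.39%, 6.59% and 6.77% in untreated and 10.3%, 8.85% and 11.9% in treated A2780cis. On that scale every treated library was above every untreated library of its line, so the direction in A2780 and the overlap in A2780cis depended on the scaling. Without treated A2780cis replicate 2, 82 genes passed. The number was 32 without treated A2780 replicate 2, 35 and 37 without untreated A2780cis replicates 2 and 3, 39 and 40 without untreated A2780 replicates 1 and 3, 40 without treated A2780 replicate 3 and 42 without treated A2780cis replicate 3, with 0 below 0 in each case. With library size alone it was 54. RPS15 rose from 338, 336 and 391 to 578, 545 and 705 CPM in A2780cis and fell from 256, 249 and 246 to 154, 203 and 229.6 CPM in A2780 (interaction 1.13, adjusted p = 6.27e-04). RPL3 and RPL10A fell in A2780 (log2 FC -0.75 and -0.92) and were at 0.21 and 0.11 in A2780cis, not past the threshold. Ribosomal protein genes have many processed pseudogenes, and reads with several alignments were counted in fractions.

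Of 80 nuclear genes of oxidative phosphorylation 58 were above 0 and 0 below (median 0.59), 42 of them responding in A2780cis alone. In A2780 23 fell and 5 rose, but 8 fell and 31 rose with library size alone, and in A2780cis 56 rose and 1 fell. UQCR11, a subunit of complex III, was at 67.8, 65.1 and 69.5 CPM untreated and 52.02, 55.6 and 67.2 CPM treated in A2780 and rose from 59.8, 57.9 and 63.2 to 94.9, 87.4 and 106 CPM in A2780cis (interaction 0.88, adjusted p = 6.92e-04). COX5B of complex IV fell from 107, 99.3 and 108 to 76.05, 85.1 and 91.9 CPM in A2780 and rose from 97.1, 81.1 and 94.7 to 147, 119 and 156 CPM in A2780cis. NDUFA7 of complex I had an interaction of 1.14 and shares 32.5% of its exon bases with other genes of its strand. The 58 became 68 without treated A2780cis replicate 2, 35 with library size alone, and between 25 and 38 without any of 9 other libraries: 25 and 30 without treated A2780 replicates 2 and 3, 31, 33 and 36 without untreated A2780 replicates 1, 2 and 3, 32 and 33 without untreated A2780cis replicates 2 and 3, and 34 and 38 without treated A2780cis replicates 1 and 3. The 6 h medians of the ribosomal and respiratory lists were 0.17 and 0.12, with 0 genes of either past the threshold.

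**Figure D4:**
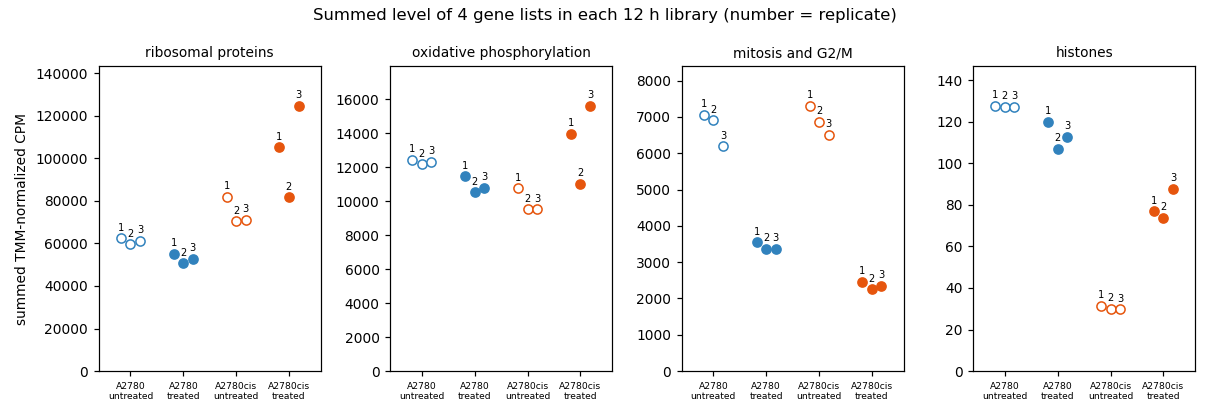
Summed TMM-normalized CPM (vertical, from 0) of the genes of 4 lists in each 12 h library, open points untreated and filled points treated, numbered by replicate. Ribosomal protein and respiratory chain sums were highest in treated A2780cis replicates 1 and 3, mitotic sums fell in both lines to the lowest values in treated A2780cis, and histone sums rose in A2780cis from between 29.7 and 31.5 to between 73.6 and 87.8 CPM.

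In glycolysis and hypoxia 11 of 32 genes were above 0 and 1 below (median 0.33). In A2780 23 fell and 2 rose, but 12 fell and 6 rose with library size alone. In A2780cis 10 fell and 10 rose, and 10 and 13 with library size alone, where 9 interactions were above 0. ADM, a vasodilator peptide induced by hypoxia, was at 12.1, 11.4 and 11.3 CPM untreated and 12.8, 13.5 and 12.8 CPM treated in A2780 and rose from 1.71, 2.67 and 1.95 to 13.1, 17.9 and 18.2 CPM in A2780cis, to the level of A2780 or above it (interaction 2.798, standard error 0.23, adjusted p = 9.20e-07). SLC2A3 is described above, and P4HA2, a collagen prolyl hydroxylase, was the gene below 0: it rose from 15.8, 17.1 and 17.7 to 46.3, 49.9 and 46 CPM in A2780 and, by a smaller step, from 102, 99.3 and 96.98 to 118, 106 and 127 CPM in A2780cis. The 11 became 6 without treated A2780 replicate 2 or untreated A2780cis replicate 2, and 7 without untreated A2780 replicate 1 or untreated A2780cis replicate 3. The 1 below became 3 with library size alone and 2 or 3 without untreated A2780 replicate 3, treated A2780 replicate 1, untreated A2780cis replicate 1 or treated A2780cis replicate 2. Of 26 genes of cholesterol synthesis and uptake 2 were above and 1 below 0, with a median of 0.04. Library size alone gave 1 above, 4 below and a median below 0. The 2 became 0 or 1 when any 1 library was left out other than treated A2780cis replicates 1 and 2, and the 1 became 2 without untreated A2780 replicate 3 or treated A2780cis replicate 1. STARD4, a sterol transfer protein, had an interaction of -0.89, and FDPS and TM7SF2 of 0.59 and 0.64, of which FDPS lost its call in 7 and TM7SF2 in 13 of 20 alternatives.

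Of 59 genes in the list of cytochrome P450 and conjugating enzymes 12 were above 0 and 5 below (median 0.34). The list also held quinone reductases and an aldehyde dehydrogenase, which are the genes named here, and cytochrome P450 genes were not counted apart. The 12 became 7 without treated A2780 replicate 2 or 3 or untreated A2780cis replicate 3. The 5 became 3 without untreated A2780 replicate 2, treated A2780 replicate 2 or untreated A2780cis replicate 2. Under library size alone 8 were above and 7 below (median 0.10). NQO1 and NQO2, the quinone reductases, were above 0. NQO1 was at 209, 211 and 210 CPM in untreated and 199.9, 164 and 177 CPM in treated A2780 and rose from 104, 87.9 and 90.2 to 167, 131 and 172 CPM in A2780cis (interaction 0.95, adjusted p = 6.59e-04). ALDH1A3, which makes retinoic acid, rose from 0.353, 0.185 and 0.165 to 5.81, 5.45 and 6.46 CPM in A2780 and from 14.9, 16.7 and 16.5 to 35, 32.98 and 28.01 CPM in A2780cis (interaction -3.66, resting on few counts in untreated A2780), and 32.1% of its exon bases are opposite exons of an antisense RNA. Of 22 genes of platinum transport and detoxification 1 was above and 2 below 0 (median -0.09), and 1 and 5 with library size alone. The 1 became 3 without treated A2780cis replicate 2 and 2 without treated A2780 replicate 3. The 2 became 4 without treated A2780cis replicate 1, and 0 or 1 without any other library but untreated A2780 replicate 3, treated A2780 replicate 1, untreated A2780cis replicate 1 and treated A2780cis replicate 2. ATP7B, a copper exporter known to export platinum, was at 16.2, 17.3 and 18.9 CPM untreated and 13.7, 19.1 and 20.4 CPM treated in A2780 and fell from 11.4, 13.1 and 12.2 to 7.36, 8.41 and 6.51 CPM in A2780cis (interaction -0.74, adjusted p = 0.0189). ABCC1, a drug exporter, fell in both lines (interaction -0.53, adjusted p = 0.0412), and its call was lost in 7 of 20 alternatives.

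The drug itself enters and is activated through nucleoside metabolism, and of 32 genes of nucleoside uptake and pyrimidine metabolism 1 was above and 5 below 0 (median -0.13). The 5 became 12 with library size alone (37.5%) and 9 without treated A2780cis replicate 1, and the 1 became 2 without treated A2780cis replicate 2. RRM2, a subunit of ribonucleotide reductase, was opposite in the lines. It rose from 282, 287 and 293 to 474, 419.5 and 403 CPM in A2780 and fell from 272, 283 and 261 to 207, 168 and 167 CPM in A2780cis (interaction -1.18, standard error 0.14, adjusted p = 4.96e-05), from untreated levels that differed by -0.08 on the log2 scale (adjusted p = 0.547). At 6 h its interaction was -0.67 (adjusted p = 0.0199). UCK1, a uridine-cytidine kinase, rose from 23.6, 26.1 and 25.7 to 49.3, 51.6 and 51.3 CPM in A2780 and from 21.04, 20.4 and 22.8 to 27.4, 26.5 and 28.1 CPM in A2780cis (interaction -0.66). NT5C2, a nucleotidase, fell in both lines, from 665, 620.5 and 586 to 166, 137 and 142 CPM in A2780cis and from 170.3, 179.5 and 176 to 80.1, 80.4 and 73.2 CPM in A2780 (interaction -0.903), and 34.8% of its exon bases are opposite exons of other genes.

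Of 46 genes of G1/S and DNA replication 4 were above 0 and 13 below (median -0.18), and the 13 became 8 without untreated A2780cis replicate 2 and 20 with library size alone. The 4 became 2 with library size alone and 1 or 2 without any untreated A2780 library, treated A2780 replicate 2 or 3, untreated A2780cis replicate 2 or treated A2780cis replicate 3. CCNE2, cyclin E2, rose from 26.5, 28.1 and 23.6 to 102, 89.98 and 95.5 CPM in A2780 and from 82.03, 67.4 and 63.6 to 137, 115 and 104 CPM in A2780cis (interaction -1.14), and shares 37.1% of its exon bases with genes of the other strand. CHAF1B, a histone chaperone, rose in A2780 (log2 FC 0.67) and had a log2 FC of 0.05 in A2780cis, not past the threshold. GINS2 of the replicative helicase fell in A2780 (-0.45) and rose in A2780cis (0.35), where the groups overlapped, all values being log2 FC. At 6 h the median interaction of the list was -0.22, with 0 genes above 0 and 5 below. Mitotic and G2/M genes fell in both lines, 34 of 39 in A2780 and 38 in A2780cis, and 29 had an interaction below 0 and 0 above (median -0.61), with 1 above without treated A2780cis replicate 1 or 2. Their summed level went from 7062, 6905 and 6194 to 3542, 3361 and 3371 CPM in A2780 and from 7296, 6871 and 6498 to 2463, 2249 and 2354 CPM in A2780cis. MKI67, the proliferation marker, fell from 454, 469 and 466 to 181, 219.7 and 226 CPM in A2780 and from 620.2, 668 and 648 to 107, 142 and 104 CPM in A2780cis (interaction -1.31, adjusted p = 8.18e-05). FOXM1, the factor of the mitotic programme, was at 103, 118 and 144 CPM untreated and 127, 144 and 143 CPM treated in A2780 and fell from 132, 156 and 151 to 76.2, 77.3 and 75.8 CPM in A2780cis (interaction -1.12). CDC20, the activator of the anaphase-promoting complex, fell in both lines (log2 FC -1.92 in A2780 and -2.94 in A2780cis). The median interaction of the mitotic list at 6 h was 0.12, with 1 gene above 0 and 0 below.

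The cell cycle genes homology region (CHR, TTTGAA on either strand) binds the complexes that repress mitotic genes after p53 activation. It was found in 20 of 31 windows of the mitotic list (64.5%), against 15.4% of all windows and 9.31% of those of well expressed protein-coding genes, and CCAAT was found in 25 of 31 (80.6%), against 35.7% of all. As the list was chosen for known mitotic genes, these shares too describe the list and not the interaction. The stretches of MKI67, CDC20 and PLK1 are shown with CHR in capitals. PLK1, a mitotic kinase picked after its values were seen, had an interaction of -0.68. In the same build they lie at chr10:128126424-128126492 (minus), chr1:43358876-43358961 (plus) and chr16:23678820-23678888 (plus).
MKI67: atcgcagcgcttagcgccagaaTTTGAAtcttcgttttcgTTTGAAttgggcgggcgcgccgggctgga
CDC20: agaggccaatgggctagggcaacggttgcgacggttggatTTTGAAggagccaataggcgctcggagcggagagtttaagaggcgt
PLK1: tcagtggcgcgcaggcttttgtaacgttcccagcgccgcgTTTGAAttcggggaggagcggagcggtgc
The motif was in 3 of 80 windows of opposite genes up in A2780cis (3.75%) and in 11 of 75 of those up in A2780 (14.7%).

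Replication-dependent histone genes, whose transcripts end in a stem-loop in place of a poly(A) tail, were above 0 in 15 of 29 and below in 0 (median 0.95), and above 0 in 9 by DESeq2's Wald test. In A2780 13 rose and 5 fell (median log2 FC 0.27), and in A2780cis 19 rose and 1 fell (median 1.33). The genes described next were among those that fell in A2780. Their sum was lower in untreated A2780cis, between 29.7 and 31.5 CPM against 127 CPM in each untreated A2780 library, and was between 73.6 and 87.8 CPM in treated A2780cis and between 107 and 120.1 CPM in treated A2780. H2BC12 fell from 32.8, 32.7 and 29.5 to 12.5, 11.8 and 13.2 CPM in A2780 and was at 4.04, 5.03 and 5.96 CPM untreated and 6.16, 6.28 and 6.51 CPM treated in A2780cis (interaction 1.68). H4C9 fell in A2780 and rose in A2780cis, where the groups overlapped (log2 FC -1.16 and 0.55), and H1-2 fell in A2780 and rose in A2780cis (log2 FC -0.402 and 0.66), with no overlap in A2780cis. Histone genes are near-identical copies, and the split of reads among them is uncertain.

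Of 30 interferon response genes 11 were above 0 and 1 below (median 0.55, and 9 and 2 with library size alone), and in A2780cis 17 rose and 4 fell. IFI27, a mitochondrial protein induced by interferon, rose from 35.7, 31.3 and 32.6 to 40.8, 44.7 and 49.6 CPM in A2780 and from 0.311, 0.424 and 0.229 to 5.62, 5.85 and 7.53 CPM in A2780cis (interaction 3.83, standard error 0.28, adjusted p = 2.88e-07), a value resting on few counts in untreated A2780cis. USP18, which removes ISG15 from proteins, was at 19.96, 19.4 and 22.7 CPM untreated and 21.1, 22.2 and 19.3 CPM treated in A2780 and rose from 4.198, 4.36 and 4.07 to 10.5, 8.17 and 9.63 CPM in A2780cis. IFI35 had the same course, with 31.5, 31.3 and 34.9 CPM untreated and 27.9, 33.5 and 33.8 CPM treated in A2780 and 6.53, 6.36 and 6.71 CPM untreated and 15.1, 12.5 and 20.1 CPM treated in A2780cis. For these 3 genes every A2780cis library, treated or not, was below every A2780 library. At 6 h the median interaction of the list was 0.38, with 3 genes above 0 and 0 below. The core of the interferon-stimulated response element (GAAA, 2 bases of any kind and GAAA again, on either strand) was in 16 of 23 windows of the list (69.6%), against 3.65% of all, and in 7 of 80 windows of opposite genes up in A2780cis (8.75%) and 1 of 75 of the reverse. The share in the list describes genes chosen for a known response to interferon and not the interaction. The stretches of IFI27, at chr14:94110601-94110690 (plus), and of IFITM1, at chr11:313960-314039 (plus), are shown with the core in capitals. IFITM1, which restricts virus entry and was picked after its values were seen, was opposite in the lines, at 193 ± 2.502 and 158 ± 9.07 CPM in untreated and treated A2780 and 9.41 ± 0.868 and 14.3 ± 2.67 CPM in A2780cis (mean ± SD, n = 3).
IFI27: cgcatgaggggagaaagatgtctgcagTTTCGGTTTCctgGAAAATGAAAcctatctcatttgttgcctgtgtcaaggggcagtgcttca
IFITM1: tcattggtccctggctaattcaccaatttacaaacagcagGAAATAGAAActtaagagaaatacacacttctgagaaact

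Among developmental pathways, the TGF-beta and BMP list had 14 of 38 genes below 0 and 3 above (median -0.37). Beside SMAD3, ID3, an inhibitor of differentiation factors and a BMP target, fell from 277, 336 and 358 to 100.1, 113 and 122 CPM in A2780cis and from 132, 143 and 173 to 103, 119 and 135 CPM in A2780, where the groups overlapped (interaction -1.21). INHBE, an activin subunit also known as a stress gene, fell from 26.1, 26.7 and 28.1 to 10.6, 8.15 and 9.12 CPM in A2780 and rose from 4.35, 4.604 and 4.01 to 6.56, 7.32 and 8.34 CPM in A2780cis (interaction 2.32, adjusted p = 9.59e-07). In the Wnt list 7 of 46 were above and 6 below 0 (median -0.03), and 4 and 8 with library size alone. The 7 became 3 or 4 when any 1 library was left out other than treated A2780cis replicates 2 and 3, and the 6 became 10 without treated A2780cis replicate 2. TCF7, a nuclear factor of the pathway, rose from 7.76, 7.28 and 9.04 to 11.98, 12.7 and 13.3 CPM in A2780 and fell from 13.2, 14.9 and 16.3 to 8.77, 10.5 and 8.41 CPM in A2780cis (interaction -1.34). LGR4, a receptor that strengthens Wnt signals, and DKK1, a secreted inhibitor, fell in both lines and by less in A2780cis (interactions of 1.02 and 0.701). Of 24 Notch genes 4 were above and 8 below 0 (median -0.18). DTX4, a ubiquitin ligase of the pathway, rose from 18.1, 18.3 and 21.6 to 33.5, 40.2 and 38.2 CPM in A2780 and fell from 80.3, 82.9 and 85.7 to 44.7, 49.8 and 44.8 CPM in A2780cis (interaction -1.78, adjusted p = 1.01e-06). HES2 rose in both lines from few counts, to 24.9, 27.7 and 26.6 CPM in A2780 and 40.6, 38.3 and 42.7 CPM in A2780cis (interaction -1.496), and RFNG, a glycosyltransferase that acts on Notch, rose in A2780 (log2 FC 1.35) and had a log2 FC of -0.03 in A2780cis, not past the threshold.

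Of 62 collagen, laminin and integrin genes 9 were above and 6 below 0, with a median of 0.03 that turned below 0 with library size alone, and the 6 became 10 with library size alone or without treated A2780cis replicate 2. ITGA6, a laminin receptor subunit, fell from 125, 128 and 122 to 55.6, 48.04 and 44.02 CPM in A2780cis and was at 20.03, 20.1 and 19.6 CPM untreated and 19.2, 16.7 and 15.9 CPM treated in A2780 (interaction -1.14). THBS3, a thrombospondin, and LAMC3, a laminin chain, had interactions of 0.82 and -1.94. In the HOX clusters 2 of 22 genes, HOXB3 (interaction 0.81) and HOXC9 (interaction 0.64), were above 0 and 0 below (median 0.26), a share near the background, and 1 was below with library size alone. Of 447 ZNF zinc finger genes, most of them encoding transcriptional repressors, 27 were above and 44 below 0 (6.04% and 9.84%, median -0.11), the first below and the second near the background, although 227 rose and 47 fell in A2780 and 196 rose and 73 fell in A2780cis. The 27 became 14 without treated A2780 replicate 2 or untreated A2780 replicate 1 or 2, 16 without treated A2780 replicate 3 and 17 without untreated A2780cis replicate 2 or 3, and the 44 became 25 without untreated A2780cis replicate 2 and 72 without treated A2780cis replicate 2. Under library size alone 13 were above and 85 below (2.91% and 19.0%), against 6.49% and 16.8% of all genes. ZNF600 rose from 10.02, 9.56 and 7.71 to 55.1, 52.6 and 49.6 CPM in A2780 and from 19.4, 17.7 and 15.5 to 24.1, 22.4 and 27.1 CPM in A2780cis (interaction -2.05). ZNF654 rose in A2780 and fell in A2780cis (log2 FC 0.899 and -0.97), as did ZNF106 (0.28 and -0.79).

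**Figure D5:**
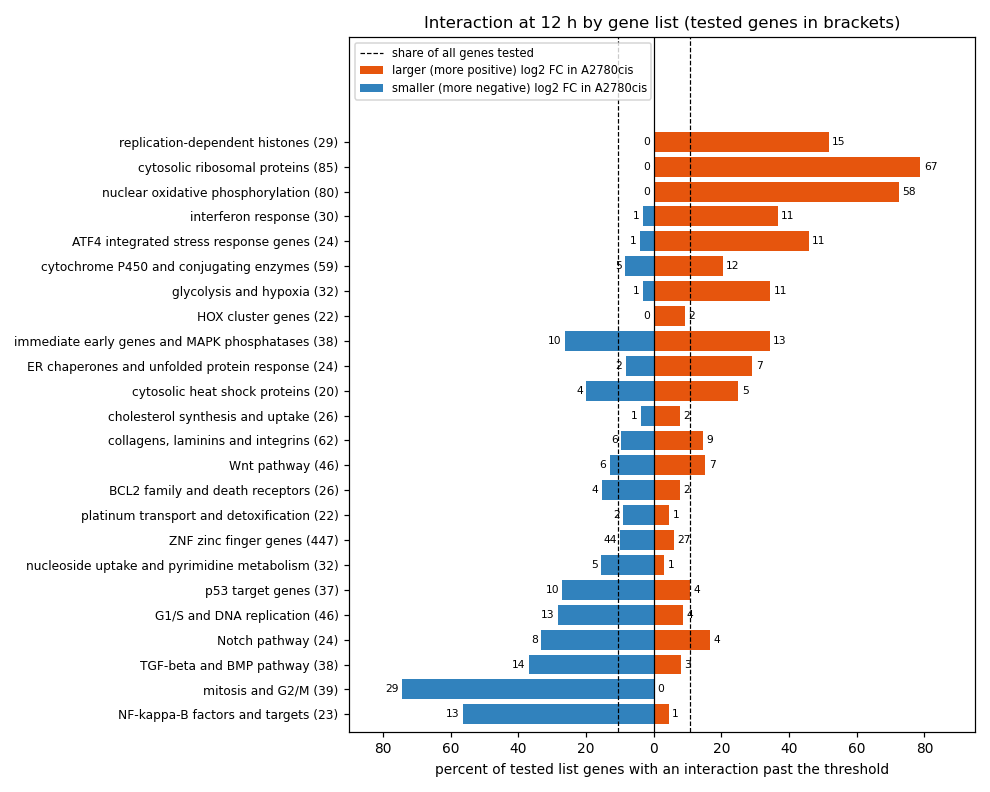
Percent of the tested genes of each list with an interaction past the threshold above 0 (right, orange) or below 0 (left, blue), with the number of genes at the bar and the shares of all genes tested, 10.7% and 10.6%, as dashed lines. Ribosomal protein, respiratory chain and histone genes reach farthest above 0, and mitotic and NF-kappa-B genes farthest below 0.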

How the data were processed

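RNA was sequenced from A2780 and A2780cis cells, and the authors deposited 1 table of expected counts per gene, which need not be whole numbers, made by trimming with Trimmomatic, alignment to GRCh38.p7 with STAR 2.5.2b and counting with featureCounts, with reads shared between features counted in part. The library kit was stranded, but the counting settings that the study lists include none for the strand. The members and gene lists were chosen with earlier results of these data known. Deposited counts were rounded and genes filtered with filterByExpr (minimum count 10, total 15). The 12 libraries of 12 h (12743219 to 21366058 counts) were fitted with 4 group coefficients, TMM factors and the quasi-likelihood test of edgeR 4.0.16 in R 4.3.3 (8 residual degrees of freedom), with Benjamini-Hochberg adjusted p of at most 0.05. All adjusted p-values in the text are from this test. The 6 h libraries were fitted likewise. A count of 3 per library was the floor for folds.

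Of 63299 genes, 56993 matched GENCODE 44, which gave symbols, coordinates and spans. Genes named were those of the largest absolute interaction log2 FC in each response class of well expressed protein-coding genes (a mean of at least 10 CPM in each line) and, per list, up to 3 past the threshold with the smallest interaction p and a mean of at least 10 CPM. Other genes with values were chosen after their values were seen. Promoter sequences were from RefSeq. In simulated data over 19812 genes for the 12 h interaction, 85 of 100 genes changed by 1 and 7 of 100 changed by 0.5 on the log2 scale were called, with 1 of 19612 unchanged genes. Alternatives were other scaling, no filter, no rounding, DESeq2 1.42.0, all 24 libraries, a replicate block, the table without lncRNA and rRNA genes, other CPM minimums and each library left out. A minimum of 10 CPM on untreated libraries alone was an alternative chosen after seeing the data.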

Additional observations from a re-analysis of the deposited data

Results flagged for a closer look

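The response differed between the lines, by edgeR's test of the difference itself, in 4327 genes, and the named genes of each response class are listed here with their interaction (log2 FC in A2780cis minus that in A2780). Among genes with opposite responses it was 1.51 for CA14, 1.42 for SLC2A3, 1.39 for ERRFI1, and 1.23 for each of ALDOC and ZNRD2. In the other direction it was -2.36 for EGFR, -2.33 for SMAD3, -2.16 for PLCL2, -2.10 for KITLG and -1.91 for CCPG1.

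Among genes past the threshold in A2780cis alone it was 1.66 for OXLD1, 1.31 for IFI35, 1.30 for RNF5 and 1.17 for ENSG00000167774, and -1.81 for RTKN2, -1.54 for SIRT1, -1.52 for SMG9 and -1.46 for GRAMD4. Among those past it in A2780 alone it was -2.04 for AHNAK, -1.71 for SLC4A11, -1.68 for PTPRU and -1.57 for ASTN2, and 1.79 for DIPK1B, 1.16 for each of OAF and SLC18B1, and 1.11 for HSP90B1. Among genes that rose in both lines it was 2.47 for TAP1, 1.96 for PAQR6, -2.33 for KAT2B and -2.25 for ANK1. Groups of 3 libraries are too small for a test of single outlying libraries.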

How the results depend on the processing

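Of 98 named genes past the threshold, 92 kept their call and sign in every alternative run, 6 lost the call in at least 1 (ABCC1, ATP7B, BCL2L1, FDPS, MAML3 and TM7SF2) and 0 changed sign. Of the 4327 interaction calls, 3947 were among the 4372 of DESeq2's Wald test, 4032 among the 4790 of the fit of all 24 libraries and 3468 among the 4723 with library size alone. Library size alone gave 8017 genes higher and 3213 lower in A2780 (TMM: 5248 and 5835), and interactions above 0 for 1318 and below 0 for 3405, and the cause was not tested. With 1 library left out, which leaves fewer samples, interaction calls ranged from 2861 to 5320, with 1238 to 2493 above and 1495 to 2827 below 0, opposite genes from 109 to 291, A2780cis alone from 551 to 1064, A2780 alone from 318 to 617, and same-direction genes from 442 to 903 (larger in A2780cis) and from 131 to 249 (larger in A2780). At 6 h the calls ranged from 113 to 509, with 22 to 206 above and 91 to 303 below 0, and all 24 libraries gave 482 below 0.

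Whether equal replicate numbers pair the samples was not settled, and the main test used no pairing. Of 18 same-numbered pairs, 7 had r over 0.1 (range -0.19 to 0.31), while a pair of different numbers reached 0.26. With the replicate block 6042 genes passed at 12 h, 4326 of them shared, with 346 opposite, 1165 same-direction genes larger in A2780cis and 412 larger in A2780, and at 6 h 226 passed, 79 above and 147 below 0. Low counts limit the tests of genes nearly absent from 1 line.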

Other observations

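Groups picked after the values of these libraries had been seen are given here as counts and values. Of 16 genes of antigen processing and MHC class I, the route by which cells show peptides to T cells, 10 had an interaction above 0 and 0 below (median 0.67), against 10.7% above 0 of all genes tested. HLA-B, a class I heavy chain, was at 340.4 ± 15.4 CPM in untreated and 378 ± 2.01 CPM in treated A2780 (mean ± SD, n = 3), and at 20.7 ± 0.606 and 40.7 ± 3.01 CPM in A2780cis (interaction 0.82, adjusted p = 3.47e-04). B2M, the light chain, was at 1030 ± 11.6 and 1124 ± 124 CPM in A2780 and at 235 ± 32.9 and 420.1 ± 60.5 CPM in A2780cis (interaction 0.71, adjusted p = 0.009195). NLRC5, the transactivator of class I genes, was at 90.3 ± 7.91 and 59.4 ± 7.78 CPM in A2780 and at 5.95 ± 0.628 and 6.74 ± 1.19 CPM in A2780cis (interaction 0.79). HLA genes are near-identical to one another, and their counts are uncertain.

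Of 20 cytosolic aminoacyl-tRNA synthetases, which load amino acids onto tRNA, 7 had an interaction above 0 and 0 below (median 0.28). WARS1, the enzyme for tryptophan, was at 695 ± 10.2 and 295 ± 12.5 CPM in untreated and treated A2780 and at 164 ± 2.93 and 129 ± 9.37 CPM in A2780cis (interaction 0.89, adjusted p = 1.72e-04). Of 78 mitochondrial ribosomal protein genes 17 were above 0 and 2 below (median 0.27), a smaller share than among the cytosolic ones. MRPL17 had an interaction of 0.89 (adjusted p = 9.61e-04), and MRPL49 of -0.46 (adjusted p = 0.0191).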
